A study of Homo sapiens with 2 samples.

Results

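The genes described here encode the machinery that carries proteins into mitochondria, in K562 cells with and without an induced hairpin against BMI1. The rule that picks them uses names and no measured value: probe sets whose platform symbol starts with TIMM or TOMM and a digit, or is PMPCA, PMPCB, GRPEL1, GRPEL2, PAM16, SAMM50, MTX1, MTX2, CHCHD4 or GFER. The rule took 38 probe sets for 35 of the genes on the array, where 18417 genes had a probe set of their own. Of the 35, 30 had a probe set with 1 symbol and 5 were found only on probe sets that carry several symbols. Of the 30, 28 passed the floor, meaning that the higher of the 2 log2 values was at least 6, and 13471 of all 18417 genes did so.

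K562 is a human chronic myeloid leukaemia line. Both cultures carried an inducible shBmi1 hairpin. The doxycycline group was 1 culture incubated with doxycycline for 96 h, and the control group was 1 culture incubated without it, each measured on 1 array. The dose of doxycycline, the incubation time of the control and whether the line is a clone or a pool are not stated in the labels. Doxycycline is known to inhibit the mitochondrial ribosome, and 0 samples received it without the hairpin, so the drug and the hairpin cannot be told apart. With 1 sample a group there is no replicate error and no test. All differences are log2 values with doxycycline minus those without, and counts of genes below 0 are to be read against 48.9% of all 13471 genes, the share below 0 in this comparison. In bulk RNA, fewer cells of a type and less RNA per cell cannot be told apart.

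The hairpin's target was lower with doxycycline. Its only probe set, shared with the read-through COMMD3-BMI1, had 10.00 with doxycycline and 10.84 in the control, or 1.79-fold lower. Of 10 erythroid genes fixed as K562 markers, 8 had a probe set past the floor, and all 8 were lower with doxycycline, with a median of -0.22. At least 1.2-fold lower were 3 of the 8 (37.5%, against 4.05% of all genes). These were the embryonic globin genes HBZ, at 10.38 with doxycycline and 10.83 in the control (-0.44), and HBE1, at 13.03 and 13.34 (-0.31), and the erythroid transcription factor gene KLF1, at 9.38 and 9.66 (-0.28). Their mean level was 10.14 with doxycycline and 10.36 in the control. Of markers of other cells, 2 of 6 T and B cell genes passed the floor, with a mean of 6.75 with doxycycline and 6.92 in the control. For monocytes 2 of 3 passed (6.26 and 6.16), and for fibroblasts 3 of 4 (7.42 and 7.44). The lower erythroid markers moved in the same direction as the import genes described next, and their part in that was not tested.

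Nearly all mitochondrial proteins are made in the cytosol and imported. The TOM complex is the entry gate of the outer membrane. From there the SAM complex inserts beta-barrel proteins, small TIM chaperones escort hydrophobic proteins to the TIM22 complex, the TIM23 complex and its PAM motor take in proteins with a presequence, a peptidase cuts that presequence off, and the MIA relay folds small proteins of the intermembrane space by forming disulfide bonds.

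As a group the import genes were slightly lower with doxycycline. Of the 28 genes past the floor, 22 (78.6%) were below 0 and 6 above it, against 48.9% of all genes below and 50.3% above. Their median difference was -0.10, or 1.07-fold lower, and the median of all genes was 0.0017. At least 1.2-fold lower were 3 of 28 (10.7%), namely TIMM21, TOMM40L and TIMM8B, against 4.05% of all genes. No member was at least 1.2-fold higher (0 of 28, against 6.05% of all genes). None reached 1.5-fold in either direction, a size that 0.111% of all genes reached downwards and 0.364% upwards. The 6 probe sets with several symbols were left out of these counts, and all 6 were lower too.

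**Figure D1:**
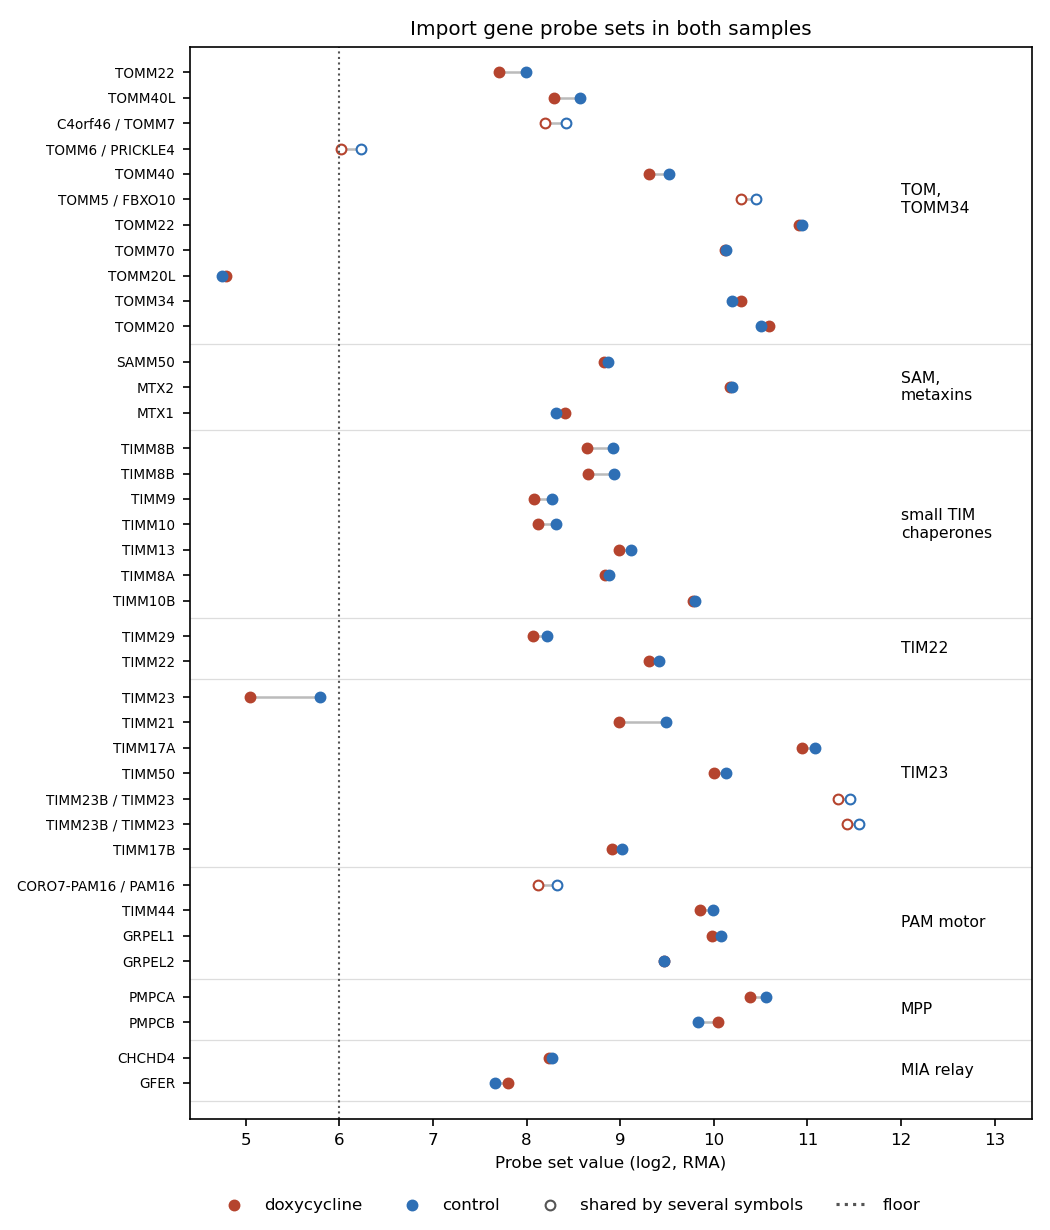
Log2 RMA value of each of the 38 import probe sets (rows, grouped by translocase) in the doxycycline sample (red) and the control sample (blue), with open circles for probe sets shared by several symbols and a dotted line at the floor of 6. Each point is 1 array. Most red points lie just left of their blue point, with the widest gap past the floor at TIMM21, and TOMM20, TOMM20L, TOMM34, MTX1, PMPCB and GFER lie the other way round.

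The TIM23 complex held the gene furthest from 0. TIMM21, a subunit that links TIM23 to the TOM complex and to the respiratory chain, stood at 8.99 with doxycycline and 9.49 in the control, a difference of -0.50 or 1.41-fold lower. Of the 13471 genes, 41 were as low, TIMM21 included. The robust SD of the differences of genes at that level was 0.14. The other subunits lay closer to 0 and close to each other. TIMM17A, a channel subunit, had 10.94 with doxycycline and 11.08 in the control (-0.14), and its paralogue TIMM17B had 8.92 and 9.02 (-0.11). TIMM50, the receptor that meets presequences in the intermembrane space, had 10.00 with doxycycline and 10.13 in the control (-0.14). All 4 genes were thus lower, with a median of -0.14.

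TIMM23, the channel protein itself, was read mainly through 2 probe sets that also carry the near-identical gene TIMM23B. The first had 11.43 with doxycycline and 11.55 in the control, the second 11.33 and 11.46, or differences of -0.12 and -0.13. These were nearly as large as those of TIMM17A and TIMM50. A further probe set, annotated to TIMM23 alone, had 5.05 with doxycycline and 5.80 in the control (-0.75). It was under the floor in both samples and was not counted.

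The motor on the matrix side was mixed. TIMM44, which tethers the motor to the channel, had 9.85 with doxycycline and 9.99 in the control (-0.14). The nucleotide exchange factor GRPEL1 had 9.98 and 10.07 (-0.10). Its paralogue GRPEL2 had 9.46 in both, a difference of 0.000238. The probe set shared by PAM16, the regulator of the motor's J protein, and the CORO7-PAM16 read-through had 8.13 with doxycycline and 8.33 in the control (-0.20). Its Hsp70 and that protein's J partner, which the naming rule does not cover, were above 0. HSPA9, the Hsp70 that pulls the chain in, had 12.52 with doxycycline and 12.41 in the control (0.11), and its J protein DNAJC19 had 10.48 and 10.36 (0.12). DNAJC15, a further J protein, was under the floor, at 4.92 with doxycycline and 5.18 in the control.

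The small TIM chaperones were lower in 6 of 6 cases, with a median of -0.16. TIMM8B was furthest from 0, and its 2 probe sets gave nearly the same result. One had 8.66 with doxycycline and 8.93 in the control (-0.27), the other 8.65 and 8.92 (-0.28). TIMM9 and TIMM10, which assemble with each other into a hexamer that shields carrier proteins, differed from the control by almost the same amount. TIMM9 had 8.07 with doxycycline and 8.27 in the control (-0.20), and TIMM10 had 8.12 and 8.32 (-0.19). TIMM8A and TIMM13 form the other hexamer, and TIMM8A is the gene of Mohr-Tranebjaerg deafness-dystonia syndrome. TIMM13 had 8.99 with doxycycline and 9.11 in the control (-0.13), and TIMM8A had 8.84 and 8.88 (-0.04). TIMM10B, which docks the chaperones on TIM22, had 9.77 with doxycycline and 9.80 in the control (-0.03).

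Both genes of the TIM22 complex, which inserts carriers into the inner membrane, were lower. TIMM22, its channel, had 9.31 with doxycycline and 9.42 in the control (-0.11). TIMM29, a subunit known from human cells, had 8.06 and 8.21 (-0.15). Over the small TIM chaperones, TIM22, TIM23 and the motor, 14 of 15 genes were lower (93.3%, against 48.9% of all genes), with a median of -0.14. GRPEL2 was the remaining one. This pool joins the groups with the lowest medians, so a high share follows partly from the choice. Of 9 genes of the outer membrane complexes, 6 were lower (66.7%), with a median of -0.02.

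**Figure D2:**
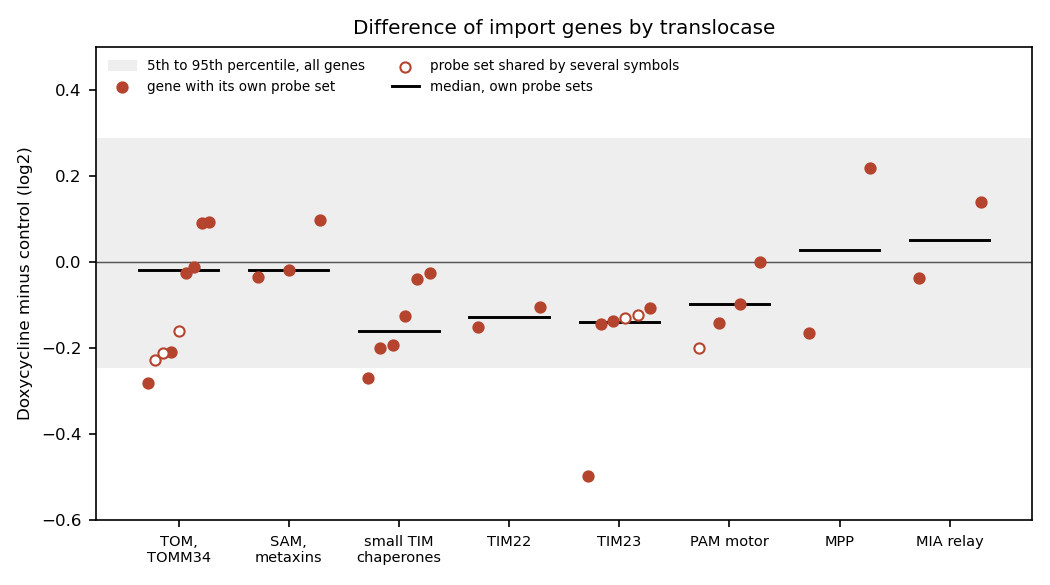
Log2 difference, doxycycline minus control, of each import gene past the floor by translocase (filled: own probe set; open: probe set shared by several symbols). Bars are medians of the filled points and the grey band holds the 5th to 95th percentile of all genes, -0.24 to 0.29. Small TIM, TIM22 and TIM23 points all lie below 0, and the TOM group splits into points near -0.2 and points near 0.

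Genes of the TOM complex lay on both sides of 0. The pore subunits were lower: TOMM40 had 9.31 with doxycycline and 9.52 in the control (-0.21), and its paralogue TOMM40L had 8.29 and 8.57 (-0.28). The small subunits that stabilise the pore could be read only through probe sets they share with another gene, and these were lower too. The set of TOMM7 and C4orf46 had 8.19 with doxycycline and 8.42 in the control (-0.23), that of TOMM6 and PRICKLE4 had 6.02 and 6.23 (-0.21), and that of TOMM5 and FBXO10 had 10.29 and 10.45 (-0.16). How much of each value belongs to the TOMM gene is not known. TOMM20 and TOMM70, both receptors, and TOMM34 were close to 0 or above it. TOMM20, the presequence receptor, had 10.59 with doxycycline and 10.50 in the control (0.09). TOMM70, the receptor for carriers and their chaperones, had 10.12 and 10.14 (-0.01). TOMM34, a cytosolic partner of Hsp70 and Hsp90, had 10.29 with doxycycline and 10.20 in the control (0.09).

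TOMM22, the central receptor, could not be placed. Its probe set with the higher mean had 10.91 with doxycycline and 10.94 in the control (-0.03), while the other had 7.70 and 7.99 (-0.29). Both are annotated to the same transcripts, and the RefSeq table lists 6 TOMM22 pseudogenes. Probe set numbers of the members mostly follow the chromosomes. That of the set with the higher mean (7930870) lies between numbers of TIMM23 sets, a gene of chromosome 10. That of the other (8073032) lies near the number of SAMM50 (8073645) on chromosome 22, where TOMM22 lies. Which locus each set reads was not tested. For scale, the pooled SD of single probe sets about the mean of their gene was 0.13, taken over 554 genes. A gap between 2 probe sets spreads wider than that. The median of the TOM group was -0.02 over 6 genes as counted and -0.11 with the other TOMM22 probe set. With that other probe set, 4 of 28 import genes were at least 1.2-fold lower in place of 3, against 4.05% of all genes. In a separate alternative that kept the first TOMM22 probe set and counted the shared probe sets, the TOM median was -0.16 over 9 genes. TOMM20L was under the floor, at 4.79 with doxycycline and 4.74 in the control.

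The outer membrane insertion machinery stayed near 0. SAMM50, the SAM channel, had 8.83 with doxycycline and 8.87 in the control (-0.04). The metaxin MTX2 had 10.17 and 10.19 (-0.02), and MTX1 had 8.41 and 8.31 (0.10). All 3 lie within 1 robust SD of genes at their level, which was 0.12 to 0.15. Several genes counted as lower do so too, such as TIMM22, TIMM17B, TIMM13 and GRPEL1. A gene called lower is thus only below 0.

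The presequence peptidase and the MIA relay each held 1 gene on either side of 0. PMPCA, the noncatalytic subunit of the peptidase, had 10.39 with doxycycline and 10.56 in the control (-0.16). PMPCB, the catalytic subunit that forms the heterodimer with it, had 10.05 and 9.83 (0.22), the highest difference of all 28 members. The difference of PMPCA minus that of PMPCB was -0.38 on the log2 scale. Of the other 9 pairs of partners or paralogues compared, TIMM8B and TIMM8A lay furthest apart, at -0.23 for TIMM8B minus TIMM8A. CHCHD4, the oxidoreductase also called MIA40, had 8.23 with doxycycline and 8.27 in the control (-0.04). GFER, the sulfhydryl oxidase that reoxidises it, had 7.80 and 7.66 (0.14).

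The other genes of the pathway did not all follow the translocases. Among the Hsp70 partners and matrix chaperones, 4 of 6 past the floor were lower (median -0.05), led by HSCB at -0.21 and HSPE1, the co-chaperonin, at -0.21. By contrast, 4 of 5 other import proteases were above 0, with a median of 0.20. XPNPEP3, which trims a residue after the peptidase has cut, had 8.49 with doxycycline and 8.22 in the control (0.27), and the inner membrane peptidase subunits IMMP1L and IMMP2L differed by 0.21 and 0.20. Of 7 genes grouped under membrane insertion, not all of them insertion factors, 6 were above 0 (median 0.04), the least of them by 0.0075. TIMMDC1, an assembly factor of complex I that is named for its similarity to the TIM17 family, had 10.83 with doxycycline and 10.55 in the control (0.28). Next came AIFM1, a partner of CHCHD4, at 0.14, and OXA1L, the inner membrane insertase, at 0.07. MICOS genes, which shape the cristae, were lower in 5 of 8 cases (median -0.04), with CHCHD6 at 0.29, MICOS13 at 0.16 and DNAJC11 at -0.10. Over these 4 lists with 26 genes, 3 were at least 1.2-fold higher (XPNPEP3, TIMMDC1, CHCHD6), a size that 6.05% of all genes reached, and 0 were at least 1.2-fold lower, against 4.05% of all genes.

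Of 4 lists of genes for imported proteins, 3 had medians close to that of the import genes, and the SLC25 carriers lay nearer to 0. All 14 MIA relay substrates past the floor were below 0, with a median of -0.11 (48.9% of all genes were below 0), although the relay's own genes were not both lower; 5 of the 14 are also respiratory chain genes. NDUFB10 differed by -0.24, COA5 by -0.21 and NDUFA8 by -0.21. Mitochondrial ribosomal protein genes, whose products mostly enter through TIM23, had a median of -0.10 with 66 of 74 lower. MRPS12 (-0.47), MRPS17 (-0.44) and MRPL41 (-0.33) were furthest from 0. Respiratory chain genes had a median of -0.10 with 69 of 90 lower, led by COX7B at -0.62, NDUFAF4 at -0.46 and NDUFB3 at -0.44. SLC25 genes, whose carriers are clients of the small TIM chaperones and TIM22, had a median of -0.03 with 31 of 45 lower, a pseudogene and the antisense RNA SLC25A5-AS1 included. SLC25A30 stood at 0.50, SLC25A10 at -0.25 and SLC25A18 at 0.22. The median of the import genes was -0.10. With 1 sample a group no difference between lists was tested.

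**Figure D3:**
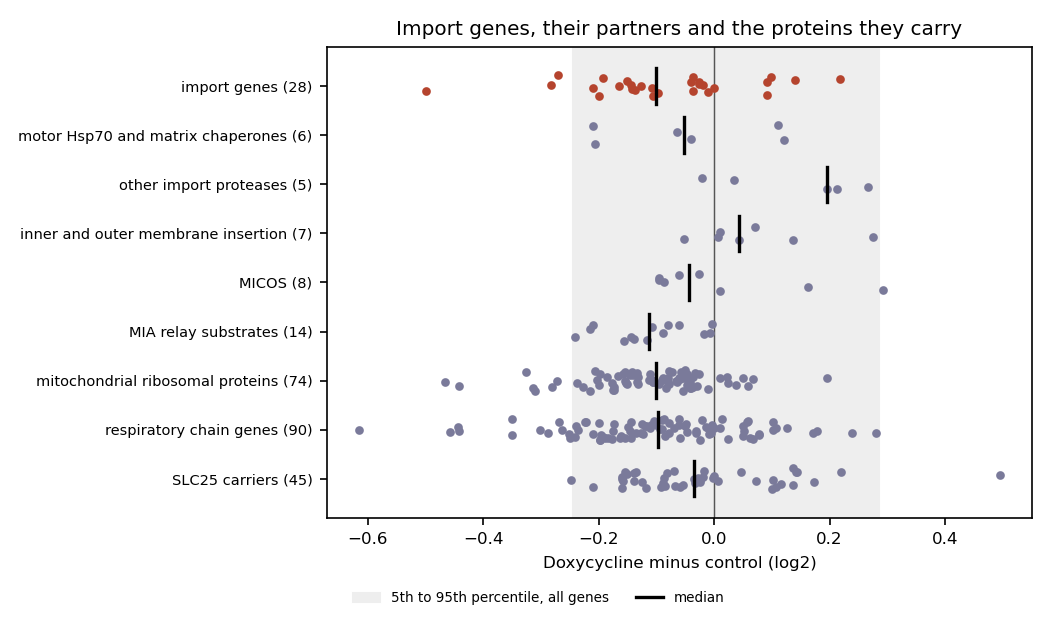
Log2 difference, doxycycline minus control, of single genes (points, spread vertically for visibility) in the import genes, 4 lists of partners and 4 lists of imported proteins, with the number of genes past the floor in brackets. Black bars are medians and the grey band holds the 5th to 95th percentile of all genes. The import genes have a median of -0.10, MIA relay substrates lie wholly below 0, and the other import proteases lie mostly above it.

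The import genes are short, and short genes as a whole were slightly lower in the doxycycline sample. The median genomic span of the members was 10589 bases, against 23970 for all 13457 genes with a span. Over all genes the difference correlated with span at Spearman's rho 0.18, and over the 28 members at 0.30, a description across genes of the same 2 arrays. Genes no longer than the median member had a median of -0.03, with 58.4% below 0. After the trend with span was subtracted, the members' median was -0.08 and 20 of 28 were below the trend, against 52.2% of all genes. By that measure 1 of 28 was at least 1.2-fold lower, in place of 3. The share of all genes at that size was 4.05% before the subtraction and was not computed after it. The count after it thus shows no excess of import genes.

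**Figure D4:**
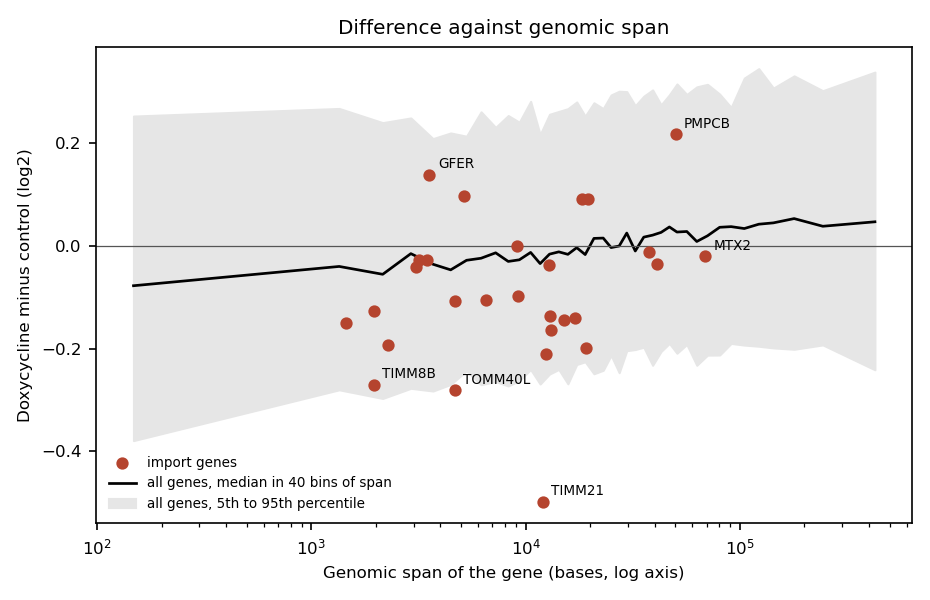
Log2 difference, doxycycline minus control, against genomic span of the gene in bases (log axis) for the 28 import genes (red), with the median (line) and the 5th to 95th percentile (grey) of all genes in 40 bins of span. Both the line and the red points run lower among short genes, and most red points lie under the line.

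The promoters of the import genes were compared with their differences because genes of this machinery are known targets of the ETS factor GABPA and of NRF1. The window ran from 250 bases before to 50 bases after the RefSeq start on GRCh38.p14, and both strands were searched. Of the 28 members, 26 had such a window. CCGGAAG, the core of the GABPA site, was found in 11 of 26 (42.3%), against 20.4% of 10601 genes past the floor and 10.3% of all 35116 windows. CATGCGC, a core of the NRF1 site, was found in 3 (11.5%, against 7.99% of genes and 4.43% of all windows), namely CHCHD4, TIMM10B and TIMM9. The E-box CACGTG was found in 3 as well (11.5%, against 12.3% of genes and 7.26% of all windows), and TGATGNAA, the core of the site for C/EBP and ATF4 dimers, in 2 (7.69%, against 2.64% and 3.62%). None of the 4 strings contains another, and a match in letters is no measure of binding.

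Members with CCGGAAG lay nearer to 0 than those without it. The 11 with it had a median difference of -0.02, and the 15 without it -0.14. TIMM10, TIMM13 and TIMM29 had the string and were lower all the same, and TIMM21 and TIMM44 lacked it. For the other strings the members with a match were too few to compare. The strings and this comparison were chosen with the differences known, and no test was made. The same split was not made over all genes.

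The 250 bases before the start of 5 members are given from RefSeq in the direction of the gene, with matches in capitals. TIMM21 and TIMM44 are shown as lower genes without a match, TIMM10 as a lower gene with CCGGAAG, and TOMM20 and PMPCB as genes above 0 with it. In TIMM10 the string occurs at 2 places. Its window also holds an E-box that does not lie wholly within the bases printed and is not marked. TOMM20 holds the E-box and, nearer to the start, CCGGAAG. PMPCB begins with TGATGNAA on the other strand and has CCGGAAG close to the start.
TIMM21 (GRCh38.p14, chr18:74148273-74148522, plus strand): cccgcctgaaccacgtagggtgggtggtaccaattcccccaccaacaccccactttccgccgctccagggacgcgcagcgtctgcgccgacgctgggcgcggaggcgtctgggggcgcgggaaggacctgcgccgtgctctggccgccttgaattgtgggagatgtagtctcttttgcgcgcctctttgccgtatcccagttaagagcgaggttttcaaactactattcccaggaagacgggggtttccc
TIMM44 (GRCh38.p14, chr19:7943667-7943916, minus strand): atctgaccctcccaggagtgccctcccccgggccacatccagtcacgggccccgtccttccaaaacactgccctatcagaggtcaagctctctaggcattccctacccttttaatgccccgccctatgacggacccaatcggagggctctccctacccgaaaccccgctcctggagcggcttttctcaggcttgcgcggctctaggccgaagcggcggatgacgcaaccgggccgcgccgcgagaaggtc
TIMM10 (GRCh38.p14, chr11:57530755-57531004, minus strand): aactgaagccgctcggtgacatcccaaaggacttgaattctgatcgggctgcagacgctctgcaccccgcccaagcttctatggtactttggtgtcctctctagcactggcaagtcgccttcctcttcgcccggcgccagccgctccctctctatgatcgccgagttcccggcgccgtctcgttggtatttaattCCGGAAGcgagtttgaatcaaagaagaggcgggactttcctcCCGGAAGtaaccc
TOMM20 (GRCh38.p14, chr1:235128838-235129087, minus strand): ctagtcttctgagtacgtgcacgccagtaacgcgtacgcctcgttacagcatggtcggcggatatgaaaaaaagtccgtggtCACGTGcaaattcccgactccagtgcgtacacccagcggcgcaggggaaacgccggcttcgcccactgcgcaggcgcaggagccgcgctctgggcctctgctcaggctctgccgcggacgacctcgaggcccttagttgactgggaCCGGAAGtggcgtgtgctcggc
PMPCB (GRCh38.p14, chr7:103297185-103297434, plus strand): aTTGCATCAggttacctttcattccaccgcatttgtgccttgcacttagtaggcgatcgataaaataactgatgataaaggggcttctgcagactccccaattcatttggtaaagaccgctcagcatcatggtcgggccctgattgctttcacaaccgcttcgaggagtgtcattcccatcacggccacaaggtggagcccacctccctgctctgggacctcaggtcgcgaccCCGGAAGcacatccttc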

How the data were processed

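Each culture's total RNA was read on 1 Affymetrix array. Per the submitters' processing notes, the authors used RMA in Affymetrix Expression Console 1.1.1. The deposited values were read as log2, since RMA gives log2 and they run between 1.61 and 14.6. RMA fits the 2 distributions to each other and shrinks differences of dim probe sets. Differences still spread more among dim genes here. The robust SD was 0.25 at the level of the dimmest import probe sets and 0.10 at that of the brightest. The design text names the HG-U133 Plus2 array, but the probe set numbers are those of the whole-transcript platform annotation used here.

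Of 33297 probe sets, 19460 had 1 symbol, 1754 several and 12083 none. A gene took its probe set with the highest mean, and genes whose higher value was under 6 were left out. Every member could be named, and of each other list the 3 genes with the largest absolute difference, besides HSPA9, DNAJC19 and DNAJC15. The naming rule uses no measured value, but the rule and the lists were written with earlier results of these data known. The comparison lists were taken by symbol (MRPL or MRPS; NDUF, COX, UQCR or ATP5; SLC25A), and the first 2 hold 1 and 2 pseudogenes and the carrier list 1 pseudogene and 1 antisense RNA. The robust SD (median absolute deviation multiplied by 1.4826) was taken in 20 bins of level. Names, spans and promoters came from RefSeq on GRCh38.p14. No label names the genome build behind the array annotation. With 1 array a group, the number of arrays limits the precision and no p-value was computed. The steps were tested on simulated data. The alternatives were other probe set rules, floors, normalizations and trends (loess span 0.3). Counting shared probe sets and swapping the TOMM22 probe set were added after seeing the data. Python 3.11.15, pandas 2.3.3 and statsmodels 0.14.6 were used.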

Additional observations from a re-analysis of the deposited data

How the results depend on the processing

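Over 13 alternatives the median of the import genes ran between -0.12 and -0.08, and the share of them below 0 between 71.4% and 82.1%. Of the 22 members that were lower, 19 were lower under every alternative that kept them. With no replicate, a list median or a count was taken as moved when it changed more than 1.5-fold (medians under 0.05 by a shift of 0.05). By this rule 151 of 163 recomputed values stayed the same. Some alternatives left most values untouched by construction, such as updating symbols, which changed none. The share that stayed is therefore no measure of robustness. The TOM median of -0.02 became -0.0856 with the mean over probe sets, -0.11 with the other TOMM22 probe set and -0.16 with shared probe sets counted. After the trend with span was subtracted, 1 member was at least 1.2-fold lower, and the share of all genes was not computed for that step. With a floor of 8 the MIA relay kept only CHCHD4 (-0.0362), so its sign turned. Over all genes, those at least 1.5-fold higher and lower numbered 77 and 66 with no floor, 26 and 9 with a floor of 7, and 16 and 4 with a floor of 8; 32 were lower with a floor of 5. Fewer or more dim genes tested account for these. No paired analysis was possible because each group held 1 sample.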

Other observations

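Some import genes share an upstream region with a gene on the other strand. Within 1000 bases before their start, 7 members had such a neighbour past the floor by the RefSeq promoter table. In 3 pairs both genes were below 0, namely PMPCA (-0.16) with ENTR1 (-0.27), TIMM10B (-0.03) with ARFIP2 (-0.07), and TIMM17B (-0.11) with PQBP1 (-0.09). In 3 pairs the import gene was below 0 and the neighbour above it, namely TIMM9 (-0.20) with KIAA0586 (0.05), TIMM29 (-0.15) with YIPF2 (0.14), and CHCHD4 (-0.04) with TMEM43 (0.08). MTX1 (0.10) and THBS3 (0.61), a thrombospondin gene, were both above 0. The median difference of the 7 neighbours was 0.05.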
